A study of Homo sapiens with 16 samples.

Results

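The genes described here encode the mTOR kinase complexes and their closest regulators. They are MTOR, RPTOR, RICTOR, MLST8, AKT1S1 and DEPTOR, which are subunits of the complexes, TSC1, TSC2 and RHEB, which control the kinase, and RPS6KB1, one of its substrates. They were chosen by name from knowledge of the pathway and matched to Ensembl gene identifiers through GENCODE symbols, which found 10 of 10 among the 60107 genes listed in each library. Tags were counted in cytoplasmic RNA of U2OS-TR cells, a human osteosarcoma line carrying the tetracycline repressor. One clone of this line also carried the ΔN-RNMT transgene, a form of the cap methyltransferase RNMT that lacks its N-terminal part and is catalytically inactive, under a promoter that doxycycline releases. In that clone 5 libraries labelled Control came from uninduced cells and 5 labelled Induced from cells that received 1 μg/ml doxycycline, added 48 h after plating and left for 24 h. In the parental U2OS-TR line, which has no transgene, 3 libraries labelled No Dox and 3 labelled With Dox were made in the same way, as the control for doxycycline itself. The libraries hold short tags next to the poly(A) tail, so that each RNA gives about 1 tag whatever its length.

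mTOR is a serine/threonine kinase that works in a pair of complexes. In mTORC1 the subunit raptor, encoded by RPTOR, presents substrates to the kinase, and in mTORC2 the subunit rictor, encoded by RICTOR, takes its place. MLST8 is found in both. Growth factors act on mTORC1 by switching off the TSC complex, which otherwise keeps the small GTPase RHEB inactive, and amino acids act through the Rag GTPases on the lysosome. Active mTORC1 releases the translation of mRNAs that begin with a 5′ terminal oligopyrimidine (TOP) tract, a C at the cap followed by a run of pyrimidines, in large part through the RNA-binding protein LARP1 and the eIF4E-binding proteins. These mRNAs encode ribosomal proteins and translation factors.

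The first bases of the transcripts show whether the genes of the complexes carry such a tract themselves. The canonical GENCODE transcripts of MTOR, RPTOR, RICTOR and AKT1S1 are set here against those of 3 mRNAs of the translation machinery, RPS6, RPS3 and EEF1A1, each as the first 20 bases of the transcript on GRCh38 and 5′ to 3′. Capitals mark a C at the first position with the unbroken run of pyrimidines from it.
MTOR (chr1:11262532-11262551, minus strand): gctcccggcttagaggacag
RPTOR (chr17:80544838-80544857, plus strand): gtcctggcaatatggcgtcc
RICTOR (chr5:39074380-39074399, minus strand): gttgtgactgaaacccgtca
AKT1S1 (chr19:49877336-49877355, minus strand): accattttgctcgagggcat
RPS6 (chr9:19380217-19380236, minus strand): CTCTTTTCCgtggcgcctcg
RPS3 (chr11:75399518-75399537, plus strand): CCTTTCCTTTCagcggagcg
EEF1A1 (chr6:73521013-73521032, minus strand): CTTTTTCgcaacgggtttgc
None of the 9 members whose transcript start was read begins with C, so the run is 0 bases in each, against 9 in RPS6, 11 in RPS3 and 7 in EEF1A1. Among 19550 canonical protein-coding transcripts 4.64% begin with a C and at least 4 more pyrimidines. This describes the annotated start, and the tags themselves do not reach it.

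Depth was 18991617 to 23251834 gene counts per uninduced library, 12527183 to 20781875 per induced library and 1473286 to 3214808 per parental library. The labels were first checked with RNMT, whose coding sequence the transgene carries. Its level rose from 74.3 ± 22.4 to 346 ± 78.0 CPM (tag counts scaled to library size by TMM, SD, n = 5 each), with every induced library, from 266 to 458 CPM, above every uninduced one, from 55.6 to 112. Parental cells had 95.6 ± 26.1 without and 71.4 ± 17.5 CPM with doxycycline (SD, n = 3 each). Of the osteoblast lineage markers, COL1A1, SPARC and RUNX2 were detected in both lines, whereas SP7 and BGLAP held 0 counts in all 16 libraries, which allows up to 3 counts per library. That bound covers sampling alone, as tags on several genes were left out of the counts. RUNX2 was called higher in the induced libraries (log2 fold change 1.16), and the nuclear RNA NEAT1 lower (−0.44). Blood markers were at most 1.23 CPM in any library. Libraries did not stand equally far apart. Among the 6 members called below, uninduced replicate 3 lay farthest from the induced libraries in 6 of 6, uninduced replicate 5 lay nearest to them in 5 of 6, and induced replicate 2 lay nearest to the uninduced libraries in 6 of 6. The range of calls when 1 library was left out is given with the members and the pathway lists. The study describes the libraries of the transgene line as biological replicates and those of the parental line as made from separate cultures.

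Among the members, AKT1S1, RPTOR, TSC2 and MLST8 fell 2.38-, 2.36-, 1.99- and 1.87-fold when ΔN-RNMT was induced, and RICTOR and RHEB rose 2.26- and 2.25-fold. MTOR itself, TSC1 and RPS6KB1 did not pass the test. Thus 6 of the 9 members tested were called (adjusted p below 0.05 from edgeR's quasi-likelihood test, Benjamini-Hochberg over all genes), 4 lower and 2 higher. Of all 13038 genes tested, 39.8% were called, 19.8% lower and 20% higher, so that a large share of the transcriptome differed between the groups of libraries. The median log2 fold change was 0.07 over the 9 members and 0.04 over all genes tested. With libraries scaled by total counts alone, the median of all genes was 0.28, calls over all genes were 1401 lower and 4022 higher in place of 2579 and 2604, and the members called were 4 lower and 3 higher. Since whole cultures were lysed, a lower level per cell and a lower share of cells with the RNA cannot be told apart. When 1 surrogate variable was added to the model, none of the 6 members passed, with adjusted p from 0.0654 to 0.142 in edgeR, and of all genes 1, RNMT, did. The log2 fold changes kept their direction in that fit but were −0.94 for AKT1S1, −0.70 for RPTOR, −0.52 for TSC2, −0.30 for MLST8, 0.66 for RICTOR and 0.55 for RHEB. In the parental line 0 of the 8 members tested were called by edgeR, where 0% of 9124 genes were, with 267 genes at an unadjusted p under 0.05 and 1, the nuclear RNA MALAT1, called by DESeq2 (311 to 1310 CPM without and 121 to 129 CPM with doxycycline).

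**Figure D1:**
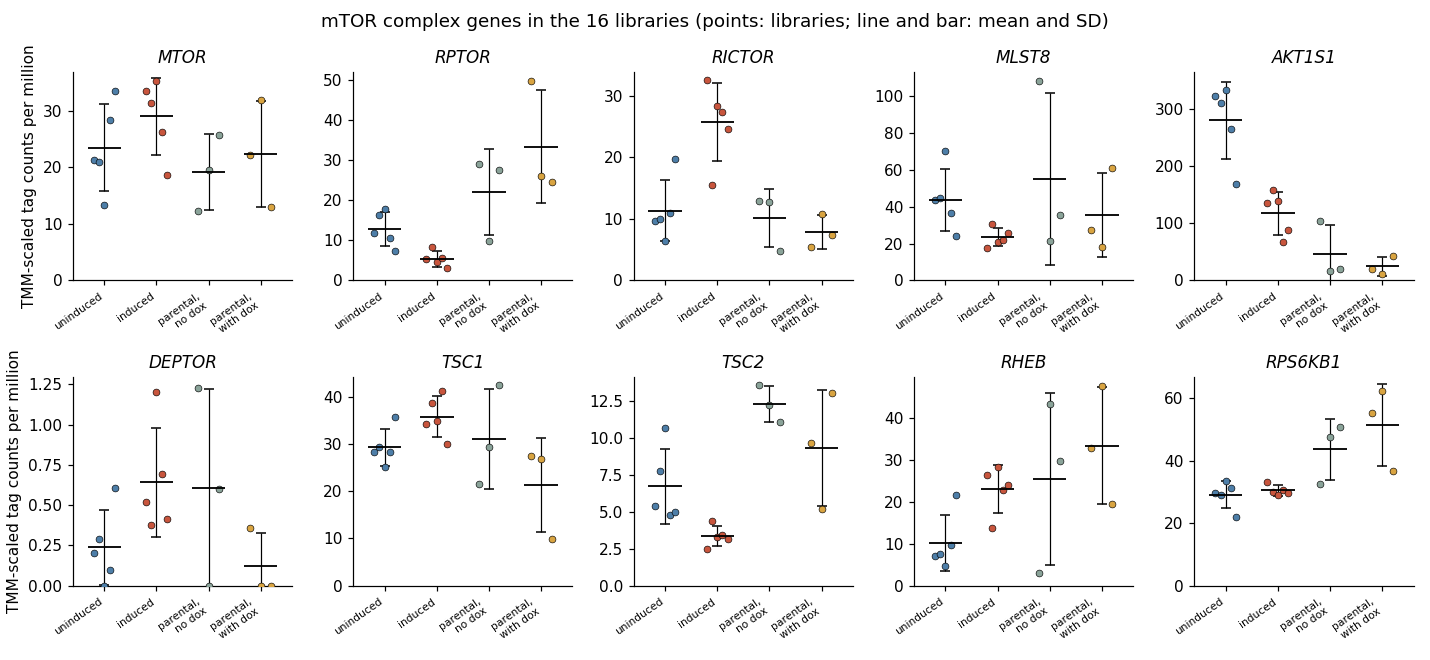
CPM (tag counts scaled to library size by TMM) of the 10 members on the vertical axes (linear, from 0) in the 4 groups of libraries. Points are libraries, the line is the group mean and the bar the SD (n = 5 per group with the transgene, n = 3 without). AKT1S1 and TSC2 are lower in every induced library than in every uninduced one, as are 4.22% of all genes tested, while the other members overlap.

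The mRNA of the substrate-presenting subunit of mTORC1 was lower. Amounts of the proteins and of the complexes were not measured for any member. RPTOR, which in GRCh38 spans 80544819 to 80966371 of chromosome 17, plus strand, was at 11.8, 16.4, 17.8, 10.5 and 7.33 CPM in uninduced replicates 1 to 5 and at 5.44, 8.33, 4.63, 5.48 and 2.97 CPM in induced replicates 1 to 5. The groups overlap only in that uninduced replicate 5 lies below induced replicate 2. Means were 12.8 ± 4.30 and 5.37 ± 1.94 CPM (SD, n = 5 each), and the log2 fold change was −1.24 ± 0.30 (SE of the fit, edgeR adjusted p = 0.0175). These levels rest on 50 to 320 tags per library. The call was kept in 10 of 10 fits that left out 1 library, with log2 fold changes from −1.46 to −1.09. The highest adjusted p from edgeR among them was 0.0495, just under the threshold. In the parental line RPTOR was at 28.9, 9.75 and 27.6 CPM without and 49.6, 25.9 and 24.4 CPM with doxycycline, where the log2 fold change was 0.60 ± 0.52 (SE, edgeR adjusted p = 0.997), and an antisense gene held nearly as many tags there, as described below.

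RICTOR, which encodes the subunit that defines mTORC2, moved the other way. It lies on chromosome 5 from 38937920 to 39074402 on the minus strand. Its levels were 9.65, 10.0, 6.45, 10.9 and 19.8 CPM in the uninduced libraries and 32.5, 15.6, 28.4, 27.4 and 24.6 CPM in the induced ones. All induced libraries but replicate 2 held more RICTOR than every uninduced library. The mean rose from 11.4 ± 5.00 to 25.7 ± 6.33 CPM (SD, n = 5 each), a log2 fold change of 1.18 ± 0.29 (SE, edgeR adjusted p = 0.0177). The call was kept in 10 of 10 fits that left out 1 library, with edgeR adjusted p up to 0.0495. Parental libraries held only 9 to 27 RICTOR tags each, so that it fell below the filter on low counts and was not tested there. Its last exon overlaps OSMR, the oncostatin M receptor gene, on the opposite strand. OSMR had a log2 fold change of 1.53 in the transgene line (SE 0.57, edgeR adjusted p = 0.0514), with 3.27 to 5.66 CPM in uninduced replicates 1 to 4 and 24.6 CPM in uninduced replicate 5. How far tags of these genes were told apart was not tested.

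The opposite changes of RPTOR and RICTOR were also measured within each library, where scaling between libraries matters little. The log2 ratio of RPTOR to RICTOR (CPM + 1) was 0.26, 0.66, 1.34, −0.05 and −1.32 in uninduced replicates 1 to 5 and −2.38, −0.83, −2.39, −2.13 and −2.69 in induced replicates 1 to 5. Uninduced replicate 5 lay below induced replicate 2, and otherwise the groups were apart. The mean went from 0.18 ± 0.98 to −2.08 ± 0.73 (SD, n = 5 each), a difference of −2.26 (two-sided exact permutation test, p = 0.0159, Benjamini-Hochberg adjusted p = 0.0476 over 6 ratio tests). This ratio combines values that the tests of the single genes already used. A dependence on GC content would not cancel in it, since the canonical transcripts hold 60.05% GC in RPTOR and 36.46% in RICTOR. No ratio of members was computed with the GC offsets described below. The parental ratio was 1.01 ± 1.33 without and 1.93 ± 0.94 with doxycycline (SD, n = 3 each, exact permutation p = 0.4, where the smallest possible p is 0.1).

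**Figure D2:**
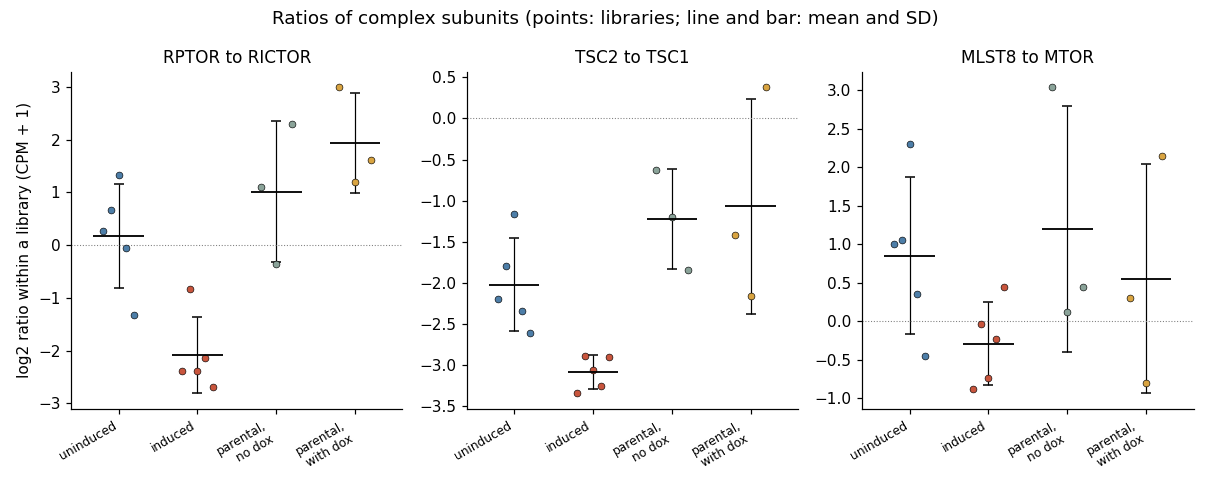
Log2 ratios of RPTOR to RICTOR, TSC2 to TSC1 and MLST8 to MTOR within each library (vertical axes, log2 scale, 1 CPM added to each gene) for the 4 groups. Points are libraries, lines are means and bars the SD. The induced libraries lie at −2.69 to −0.83 for RPTOR to RICTOR and at −3.35 to −2.89 for TSC2 to TSC1, where the uninduced libraries lie at −2.61 to −1.16.

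Of the genes for subunits found in both complexes, that of the kinase itself gave no call and MLST8 was lower. MTOR, on chromosome 1 from 11106535 to 11262556 on the minus strand, was at 21.3, 20.9, 13.4, 28.4 and 33.5 CPM in the uninduced and 33.6, 31.3, 35.3, 26.2 and 18.6 CPM in the induced libraries. The groups overlap over most of their range, and the log2 fold change was 0.30 ± 0.25 (SE, edgeR adjusted p = 0.335). MLST8, a WD-repeat protein that stabilizes the kinase domain and lies on chromosome 16 from 2204248 to 2209453 on the plus strand, was at 43.6, 44.5, 70.1, 36.4 and 24.2 CPM in the uninduced and 17.8, 30.5, 20.8, 22.1 and 25.8 CPM in the induced libraries. Uninduced replicate 5 again lay inside the induced range. The log2 fold change of MLST8 was −0.90 ± 0.26 (SE, edgeR adjusted p = 0.0226). The call was lost in 4 of 10 fits, without uninduced replicate 2 or induced replicates 1, 3 or 4, where the highest adjusted p was 0.0586 and the log2 fold changes were −0.91 to −0.82. The log2 ratio of MLST8 to MTOR went from 0.85 ± 1.01 to −0.29 ± 0.54 (SD, n = 5 each, exact permutation p = 0.0556, adjusted p = 0.111).

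Of the genes for inhibitory subunits, AKT1S1 was called lower, and DEPTOR had too few tags to be tested. AKT1S1 encodes PRAS40, which binds raptor and restrains mTORC1 until it is phosphorylated by AKT and mTORC1. It lies on chromosome 19 from 49869033 to 49878459 on the minus strand. Its levels were 322, 311, 333, 265 and 170 CPM in the uninduced libraries and 136, 158, 139, 67.9 and 88.7 CPM in the induced ones, so every induced library lay below every uninduced one. Among all genes tested 4.22% were separated in this way. The mean fell from 280 ± 67.2 to 118 ± 37.7 CPM (SD, n = 5 each), a log2 fold change of −1.25 ± 0.26 (SE, edgeR adjusted p = 0.0175). The call was kept in 10 of 10 fits that left out 1 library, with edgeR adjusted p up to 0.0495. Parental levels were 104, 15.8 and 20.1 CPM without and 20.4, 11.2 and 43.2 CPM with doxycycline, and the log2 fold change was −0.92 ± 0.74 (SE, edgeR adjusted p = 0.997). That value rests on the first untreated library, and without it the log2 fold change was 0.53.

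DEPTOR, which inhibits both complexes, was close to the limit of detection. It lies on chromosome 8 from 119873717 to 120050918 on the plus strand and held 4, 5, 0, 2 and 14 tags in the uninduced libraries and 7, 8, 19, 15 and 7 tags in the induced ones. Parental libraries held 2, 0 and 2 tags without and 1, 0 and 0 with doxycycline, where a count of 0 allows up to 3. DEPTOR passed the filter in neither line, and a difference was not tested.

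Upstream of mTORC1, TSC2 was called lower and TSC1 gave no call. TSC2 encodes tuberin, the subunit that acts on RHEB, and lies on chromosome 16 from 2047967 to 2089491 on the plus strand. It was at 5.38, 7.72, 10.7, 4.74 and 4.99 CPM in the uninduced and 2.46, 4.38, 3.30, 3.41 and 3.15 CPM in the induced libraries. The groups did not overlap, a separation in this direction that 4.22% of all genes tested had. The log2 fold change was −0.996 ± 0.26 (SE, edgeR adjusted p = 0.0186), on 33 to 192 tags per library. Without induced replicate 1 it was −0.90 and the adjusted p from edgeR was 0.0506, while the call was kept in the other 9 fits that left out 1 library. TSC1, which encodes the scaffold hamartin and lies on chromosome 9 from 132891348 to 132946874 on the minus strand, was at 28.3, 29.3, 25.1, 28.3 and 35.7 CPM in the uninduced and 34.2, 38.8, 34.9, 41.1 and 29.9 CPM in the induced libraries. Its log2 fold change was 0.29 ± 0.15 (SE, edgeR adjusted p = 0.128), and scaling by total counts alone gave 0.52 with an adjusted p of 0.0284.

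The log2 ratio of TSC2 to TSC1 fell from −2.02 ± 0.57 to −3.09 ± 0.21 (SD, n = 5 each). Every induced library, from −3.35 to −2.89, lay below every uninduced one, from −2.61 to −1.16. The difference was −1.07 (two-sided exact permutation test, p = 0.00794, the smallest that 252 splits allow, adjusted p = 0.0476). The canonical transcripts hold 60.42% GC in TSC2 and 48.28% in TSC1, and this ratio was not computed with GC offsets. The parental ratio was −1.23 ± 0.61 without and −1.07 ± 1.31 with doxycycline (SD, n = 3 each, exact permutation p = 0.9). TSC2 overlaps a gene on the opposite strand, as described below.

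RHEB, the GTPase that activates mTORC1 on the lysosome, lies on chromosome 7 from 151466012 to 151520120 on the minus strand. It was at 7.16, 7.60, 4.78, 9.78 and 21.7 CPM in the uninduced and 26.4, 13.6, 28.3, 22.7 and 24.1 CPM in the induced libraries. Uninduced replicate 5 stood at more than 2 times any other uninduced library and above induced replicate 2. The mean rose from 10.2 ± 6.66 to 23.0 ± 5.67 CPM (SD, n = 5 each), a log2 fold change of 1.17 ± 0.37 (SE, edgeR adjusted p = 0.0290). This call was the least stable of the 6. It was kept in only 2 of 10 fits that left out 1 library, those without uninduced replicate 5 (log2 fold change 1.63, adjusted p = 4.7e-04 from edgeR) and without induced replicate 2 (1.31, adjusted p = 0.0157), and in the other 8 the log2 fold change was 0.98 to 1.18 with adjusted p up to 0.0700. RHEB has 3 annotated pseudogenes, and tags that matched more than 1 place were left out of the counts. Such tags numbered 0.561 to 1.33 for each tag on a gene in the transgene libraries and 0.773 to 1.44 in the parental ones. Parental RHEB levels ranged from 3.08 to 43.3 CPM without doxycycline and from 19.6 to 47.5 CPM with it.

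RPS6KB1 encodes the S6 kinase, the substrate of mTORC1 that phosphorylates ribosomal protein S6, and lies on chromosome 17 from 59893046 to 59950574 on the plus strand. Its levels were 29.7, 28.9, 33.5, 31.3 and 21.9 CPM in the uninduced and 33.3, 29.96, 29.1, 30.6 and 29.5 CPM in the induced libraries. The induced libraries fell within the uninduced range, and the log2 fold change was 0.07 ± 0.14 (SE, edgeR adjusted p = 0.706). Parental libraries had 43.7 ± 9.75 without and 51.4 ± 13.2 CPM with doxycycline (SD, n = 3 each).

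**Figure D3:**
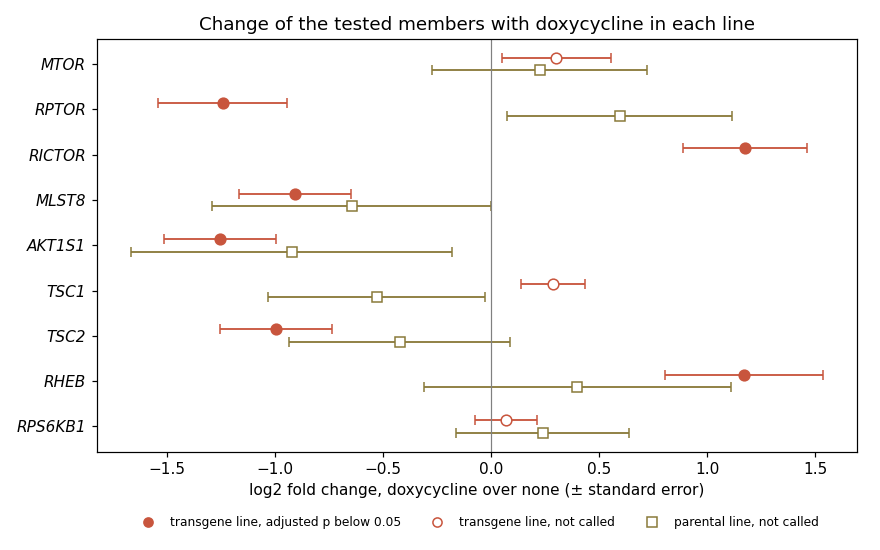
Log2 fold changes with doxycycline (horizontal axis, ± standard error of the edgeR fit) for the 9 members tested with the transgene (circles) and the 8 tested in parental cells (squares). Filled symbols passed an adjusted p of 0.05. All 6 calls are among the circles, and the standard errors of the squares are 0.40 to 0.74.

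Whether the lines responded differently was tested directly, as the change in the transgene line minus that in the parental line over all 16 libraries. None of the 9 members passed (edgeR, with RPTOR and RICTOR at an unadjusted p under 0.05), where 2.98% of 12265 genes did. The largest difference was that of RPTOR, −2.06 on the log2 scale (standard error 0.585, adjusted p = 0.0565 from edgeR), and the next was that of RICTOR, 1.29 ± 0.55 (SE, adjusted p = 0.151). DESeq2's test called RPTOR alone (−1.996, adjusted p = 0.0151). Leaving out 1 library gave 0 to 2 calls. RPTOR passed without uninduced replicate 5 (−2.23, adjusted p = 0.0146), induced replicate 2 (−2.31, 0.0285) or With Dox replicate 2 (−2.08, 0.0357), and RICTOR passed without uninduced replicate 5 (1.52, 0.0483), all from edgeR. For none of the members does the absence of a call in the parental line show that the lines differ.

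The lines also differed in how their tags fell on genes, which bears on this comparison. The last exon of RPTOR overlaps ENSG00000261924, a gene on the opposite strand. In the transgene line RPTOR had 50 to 320 tags per library and ENSG00000261924 at most 1. The parental values were nearly equal, 47 and 48, 16 and 12, and 92 and 94 tags without doxycycline and 139 and 139, 65 and 61, and 30 and 32 tags with it, for RPTOR and ENSG00000261924 in that order. MLST8 and BRICD5, which overlaps it on the opposite strand, differed between the lines likewise, with 238 to 1262 against 18 to 62 tags per transgene library and 35 to 176 against 51 to 203 tags per parental library. Genes named as antisense RNAs took 0.232 to 0.282% of gene counts per transgene library and 1.04 to 1.197% per parental one, and tags outside genes were 0.0744 to 0.106 and 1.11 to 1.497 for each tag on a gene. The parental counts of RPTOR and MLST8 therefore cannot be told apart from those of their antisense neighbours, and what set this difference was not tested. The last exon of TSC2 overlaps PKD1 on the opposite strand. TSC2 and PKD1 held 33 to 192 and 99 to 338 tags per transgene library and 13 to 37 and 16 to 55 per parental library. How far tags of TSC2 and PKD1 were told apart was not tested.

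Because tags are made at the poly(A) end, the last 30 bases of the canonical transcripts of 5 of the 6 members called are shown, 5′ to 3′ on GRCh38, with a poly(A) signal hexamer (AATAAA or ATTAAA, the sequence that directs cleavage) in capitals where it lies in this window.
RPTOR (chr17:80966339-80966368, plus strand): gagtgaccaacagtaaacaacacgcgcaga
RICTOR (chr5:38937920-38937949, minus strand): tgttAATAAAatgtacttaaaattcttaaa
MLST8 (chr16:2209424-2209453, plus strand): tgcagagataaatcagccgctgtctccggg
TSC2 (chr16:2089462-2089491, plus strand): gaAATAAAttagcatctcagaggctagaaa
RHEB (chr7:151466012-151466041, minus strand): tttattAATAAAatatagttttgctttgca
RICTOR, TSC2 and RHEB hold AATAAA, while RPTOR and MLST8 hold neither in this window. Among 19550 canonical protein-coding transcripts 70.4% hold either hexamer in their last 30 bases, searched on the transcript strand alone. These are the annotated ends, and counts per gene do not show which end the tags came from. The paper reports that in uninduced cells many tags lay upstream of annotated 3′ ends. It also reports that annotated ends were in general used more once ΔN-RNMT was induced. Which ends the members used was not tested here.

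GC content moved with the direction of change. The canonical transcripts of AKT1S1, MLST8, TSC2 and RPTOR, the 4 members called lower, have 64.1, 63.0, 60.4 and 60.1% GC and are the 4 highest among the members. RICTOR, called higher, has the lowest, 36.5%, and RHEB has 48.0%. The tested genes were split into 3 equal groups by GC content. The group with the highest, 53.7 to 76.0%, had a median log2 fold change of −0.42, with 39% called lower and 7.13% higher, and the group with the lowest, 27.8 to 43.8%, had 0.39, with 3.99% called lower and 34.7% higher. The mean GC content of the tagged transcripts, weighted by counts, was 49.4 to 50.6% in the uninduced libraries, lowest in replicate 5, and 48.5 to 49.5% in the induced ones. With offsets that remove the dependence on GC content in each library, 4 of the 6 calls were kept. RPTOR was then at −0.85 (adjusted p = 0.0376), AKT1S1 at −0.75 (0.0361), RICTOR at 0.68 (0.0376) and RHEB at 1.10 (0.0397) on the log2 scale, all from edgeR. TSC2, at −0.60 (adjusted p = 0.0538), and MLST8, at −0.43 (0.0845), were no longer called. RPS6KB1, with 37.2% GC, turned from 0.07 to −0.45 (adjusted p = 0.0793 from edgeR). The part of GC content in these changes was not tested beyond this.

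**Figure D4:**
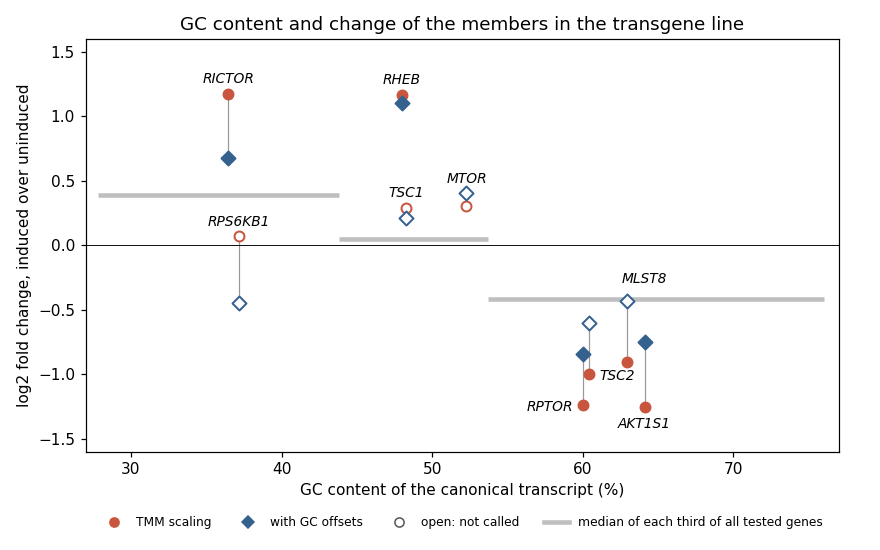
GC content of the canonical transcript (horizontal axis, %) against the log2 fold change of induced over uninduced libraries (vertical axis) for the 9 members tested. Circles are the values with TMM scaling, diamonds those with GC offsets, open symbols did not pass an adjusted p of 0.05, and grey bars are the medians of all tested genes in each of the 3 GC groups. The 4 members called lower lie at 60.1 to 64.1% GC, and RPTOR, AKT1S1, RICTOR and RHEB kept filled diamonds.

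The other genes of the pathway were examined as 4 lists, with 81 of 83 genes tested. In the transgene line 18 were called higher and 19 lower, 45.7% of those tested, near the 39.8% of all genes, and with 1 surrogate variable 0 were called by edgeR. In the parental line 0 of the 66 tested were called. Among the partners of the complexes and the factors that assemble them, 2 of 8 were higher and 4 lower (median log2 fold change −0.43). With 1 library left out, 0 to 3 were higher and 2 to 5 lower, and any were higher only without uninduced replicate 5 or induced replicate 2. PRR5 and PRR5L, related subunits of mTORC2, went in opposite directions. PRR5 fell from 17.5 ± 5.58 to 8.51 ± 1.64 CPM and PRR5L rose from 7.39 ± 3.25 to 12.6 ± 2.41 CPM (SD, n = 5 each; adjusted p = 0.0175 and 0.0408 from edgeR). TBC1D7, a further subunit of the TSC complex, rose by 0.91 on the log2 scale (standard error 0.34, adjusted p = 0.0487), while TELO2 and TTI1, which help assemble kinases of the mTOR family, were at −0.94 and −0.63 (adjusted p = 0.0200 and 0.0175). MAPKAP1, an obligate subunit of mTORC2, was at −0.31 ± 0.14 (SE, adjusted p = 0.0849), all from edgeR.

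Of the effectors of mTORC1, 2 of 20 were called higher and 4 lower, with a median log2 fold change of 0.02. The shares over all genes tested were 20% higher and 19.8% lower. With 1 library left out, 0 to 3 were higher, none without uninduced replicates 1 or 2 or induced replicates 1, 3 or 4, and 3 to 6 were lower. LARP1, which binds the cap and the TOP tract, was at 67.7 ± 23.7 CPM uninduced and 103 ± 15.1 CPM induced (SD, n = 5 each), a log2 fold change of 0.60 that just missed the threshold (SE 0.22, edgeR adjusted p = 0.0502). Of the eIF4E-binding proteins, EIF4EBP2 rose by 0.73 ± 0.22 (SE, adjusted p = 0.0256) while EIF4EBP1 was at −0.40 ± 0.21 (SE, adjusted p = 0.144). PDCD4, an inhibitor of the helicase eIF4A that S6 kinase removes, rose by 0.47 ± 0.17 (SE, adjusted p = 0.0435). RPS6KB2, the second S6 kinase gene, fell from 200 ± 58.4 to 101 ± 22.4 CPM (adjusted p = 0.0175), whereas RPS6KB1 gave no call. The transcription factors TFEB and TFE3, which mTORC1 keeps out of the nucleus, were at −1.12 and −0.78 (adjusted p = 0.0177 and 0.0179), all from edgeR. RPS6 itself was at 883 ± 535 CPM uninduced and 1408 ± 181 CPM induced, with an adjusted p of 0.129 from edgeR.

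The amino acid branch had 6 of 30 genes called higher and 8 lower (median log2 fold change 0.15). With 1 library left out, the higher calls ranged from 1, without uninduced replicate 2 or induced replicates 1, 3 or 4, to 11, without uninduced replicate 5, and the lower calls from 3, without induced replicates 1 or 4, to 8. LAMTOR3, a subunit of the Ragulator scaffold on the lysosome, rose from 2.91 ± 2.43 to 15.4 ± 7.11 CPM (SD, n = 5 each; log2 fold change 2.38 ± 0.55, edgeR adjusted p = 0.0175). Its levels were 1.17 to 3.00 CPM in uninduced replicates 1 to 4, 7.07 CPM in uninduced replicate 5 and 3.48 CPM in induced replicate 2. The S-adenosylmethionine sensor SAMTOR and the arginine transporter SLC38A9 rose by 1.49 and 0.83 on the log2 scale (adjusted p = 0.0244 and 0.0252 from edgeR). The arginine sensor CASTOR1, the leucine sensor SESN2 and the GATOR1 subunit NPRL2 were at −1.21, −0.64 and −0.97 (adjusted p = 0.0175, 0.0175 and 0.0176 from edgeR). Genes for sensors and for their targets were called in both directions, as were all genes tested, 20% higher and 19.8% lower.

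Of the genes that carry growth factor and energy signals, 8 of 23 were called higher and 3 lower (median log2 fold change 0.33). Over all genes tested, 20% were higher and 19.8% lower. With 1 library left out, the higher calls ranged from 1, without uninduced replicates 1 or 2 or induced replicates 1 or 4, to 10, without induced replicate 2. The lower calls ranged from 2 to 4, so that in some of these fits higher calls did not outnumber lower ones. AKT2, one of the kinases between growth factor receptors and the TSC complex, fell from 2054 ± 584 to 867 ± 269 CPM (SD, n = 5 each; log2 fold change −1.24 ± 0.26, edgeR adjusted p = 0.0175). PIK3R2, a regulatory subunit of PI3-kinase, fell by 0.62 (adjusted p = 0.0456) and the insulin receptor substrate IRS1 rose by 0.63 (adjusted p = 0.0203). Among genes of the energy sensor AMPK, PRKAA2, a catalytic subunit, rose by 0.93 (adjusted p = 0.0239), PRKAG1, a regulatory subunit, fell from 377 ± 176 to 138 ± 43.2 CPM (adjusted p = 0.0175), and CAB39, which activates the AMPK kinase LKB1, rose by 1.43 (adjusted p = 0.0175, all from edgeR). With GC offsets these lists gave 2 and 1, 3 and 1, 4 and 3, and 3 and 3 genes called lower and higher, in the order described.

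**Figure D5:**
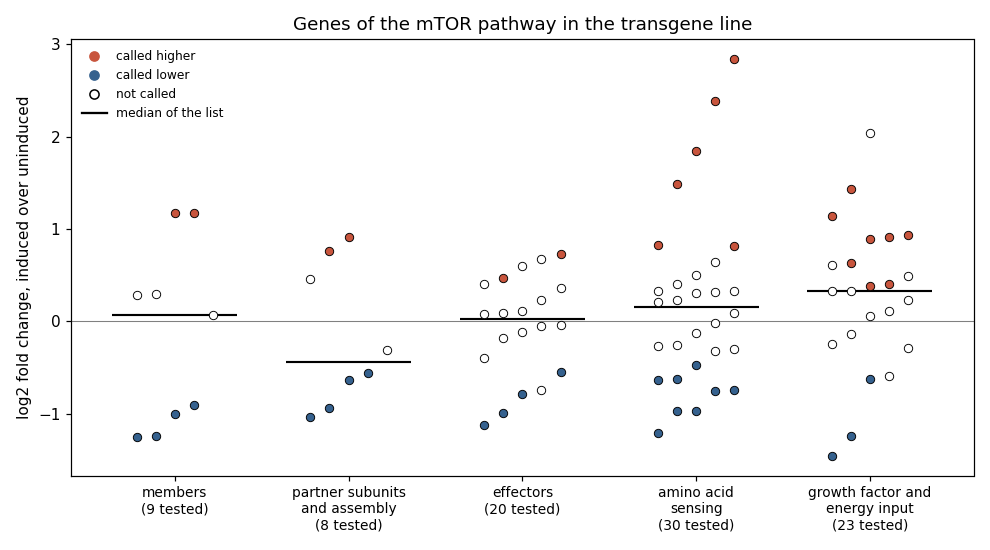
Log2 fold changes of induced over uninduced libraries (vertical axis) for the tested genes of the mTOR pathway by list (horizontal axis). Filled points passed an adjusted p of 0.05, open points did not, and the line is the median of the list. Each list has calls in both directions, which was lost with 1 surrogate variable and, for partners and effectors, in several fits with 1 library left out, and the medians lie between −0.43 and 0.33.

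The spread of MTOR among libraries of one group was shared by other genes. Over the 10 libraries of the transgene line, the tested genes whose log2 CPM deviated most like that of MTOR from the group means were MFF (Pearson r = 0.985), ANKFY1, ENSG00000274825, MAPRE1 and C3orf18 (r = 0.984 each). These are the highest among the 13038 genes tested, over 10 libraries that differ in depth and base composition, and they are given as a description. Within the group of members, the deviations of RICTOR, TSC1 and RHEB went with those of MTOR (r = 0.64, 0.68 and 0.65) and those of MLST8, TSC2 and RPS6KB1 went against them (r = −0.80, −0.63 and −0.51), while RPTOR and AKT1S1 had r = −0.22 and −0.09.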

How the data were processed

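Cytoplasmic RNA of 16 samples was made into QuantSeq REV 3′ tag libraries. The authors trimmed and aligned the reads and deposited a table of raw tag counts per Ensembl gene for each library. The strand setting of the counting is not given in the sources used here. The lines were sequenced separately and at different read lengths, so each was fitted on its own. Spike-in entries held 0 counts, and tags on no gene, on several genes or at several places stayed out of library sizes. Gene symbols, positions and sequences came from GENCODE 44 on GRCh38, which named 56104 of 60107 genes.

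Genes with a base mean above 20, by DESeq2 size factors, were tested with edgeR (4.0.16, R 4.3.3), using TMM scaling, the quasi-likelihood test and Benjamini-Hochberg adjustment over all genes tested, with a threshold of 0.05. The difference between the lines was an interaction term over all 16 libraries. CPM values are TMM-scaled and not divided by length, since tags lie at the 3′ end. Ratios of members used log2(CPM + 1) and a two-sided exact permutation test. Alternatives were DESeq2 (1.42.0), its size factors, total counts, other filters, GC offsets (lowess, span 0.5), 1 surrogate variable (sva 3.50.0), a replicate block, and each library left out in turn. The code was tested on simulated data.

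The members, the pathway lists and the tests were chosen with earlier results of these data known. Named are all members, RNMT, a few genes set by name (LARP1, EIF4EBP1, EIF4EBP2, RPS6KB2, RPS6, MAPKAP1, PRR5 and TBC1D7), the 3 called genes of each pathway list with the smallest p in each direction, and the 5 genes most like MTOR. Genes that overlap a member's last exon were added after their values were seen. A few marker and neighbouring genes and the 3′ sequence of AKT1S1 are not reported here.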

Additional observations from a re-analysis of the deposited data

How the results depend on the processing

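Of the 6 members called in the transgene line, 3 to 6 were called when 1 library was left out (3 without induced replicate 1) and 0 with 1 surrogate variable, while calls over all genes ranged from 1869 to 7604 and fell to 1. MTOR turned to −0.077 on the log2 scale with the surrogate variable. RPS6KB1 turned to −0.45 with GC offsets and −0.42 with GC offsets and the replicate block, and ranged from −0.03 to 0.10 with 1 library left out. In the parental line DESeq2 called 1 gene (MALAT1), no filter 10 and leaving out 1 library 0 to 2 (SAMD1 and TAF1, without With Dox replicate 2), and the ranges over left-out libraries crossed 0 for MTOR (−0.075 to 0.574), MLST8 (−1.32 to 0.39), RHEB (−0.04 to 1.07) and AKT1S1 (−1.61 to 0.53).

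For the difference between the lines, 1 member was called by DESeq2 and 1 with the replicate block (RPTOR, −2.12, adjusted p = 0.0475), and 0 to 2 with 1 library left out. Over all genes, 1478 were called by DESeq2, 236 with its size factors, 3 with filterByExpr (RNMT, ADGRE5 and BCL11B), 150 with no filter, 222 with the block, 189 with GC offsets and the block, and 0 to 2290 with 1 library left out, against 365. MTOR turned to 0.39 with total counts, 0.016 with filterByExpr, 0.027 with no filter, 0.054 with GC offsets and 0.10 with GC offsets and the block (−0.37 to 0.35 with 1 library left out). With total counts MLST8, RPS6KB1 and AKT1S1 turned to 0.20, 0.19 and 0.11, and with 1 library left out MLST8 and AKT1S1 ranged from −1.24 to 0.15 and −1.73 to 0.081.

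Replicate numbers did not pair the libraries. Same-numbered libraries deviated with correlations of −0.25, 0.63, −0.37, −0.11 and 0.24 in the transgene line and 0.00, 0.24 and −0.42 in the parental line. With the number as a block 6 members and 5188 genes were called in the transgene line. The paired exact permutation p of the ratios of RPTOR to RICTOR (−2.26) and TSC2 to TSC1 (−1.07) was 0.0625, the smallest that 5 pairs allow. The ratio of MLST8 to MTOR ranged from −1.47 to −0.78 with 1 library left out, and in the parental line that ratio ranged from −1.45 to 0.27 and that of TSC2 to TSC1 from −0.57 to 0.71. The causes of these shifts were not tested. Depth limits the parental line, where the tested members had 5 to 176 tags per library.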
